A study of Mus musculus with 6 samples.

Results

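Cre adenovirus was compared with GFP adenovirus in primary mouse adipocytes in which Rbm43 had been lowered with siRNA, and the comparison covered 13965 of the 35976 gene rows of the table. A gene was included when its normalized count reached 10 in 2 or more of the 4 libraries concerned. A further 13770 rows were at 0 in all 4 libraries. All cells carried loxP-flanked copies of Ppargc1a (Ppargc1a(fl/fl)), all were fully differentiated after virus and siRNA, and both groups received the same Rbm43 siRNA. They differed in the virus: GFP virus (2 libraries, here called the GFP libraries) or virus encoding Cre, the recombinase that excises DNA between loxP sites (2 libraries, the Cre libraries). The remaining group of the study, GFP virus with control siRNA (2 libraries, the control libraries), shared in the fit and is given where it sets a level in context. Libraries of a group are described as biological duplicates, with no word on whether the animals or cultures were separate, so p-values measure the spread between these libraries, which may be technical. Cells given Cre virus with control siRNA were not analysed here, so whether a difference needs the Rbm43 siRNA cannot be told from these groups.

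Ppargc1a encodes PGC-1alpha, a coactivator that binds no DNA itself. It is brought to genes by transcription factors such as the estrogen-related receptors, the PPAR family and NRF1, and there raises transcription of genes for mitochondrial respiration, fatty acid oxidation and, in brown and beige fat, heat production through Ucp1. It is best known as a cold- and fasting-induced regulator of mitochondrial content. Rbm43 encodes an RNA-binding protein. The comparison asks which genes differ when cells with low Rbm43 RNA also receive the recombinase for Ppargc1a.

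The 4 libraries held 19652000 to 21961724 reads in genes, and the 2 control libraries 15775398 and 18562682. Values are normalized counts: reads in a gene over the library's size factor. Replicates differed by more than sampling noise (chi-square per degree of freedom 2.759 for the GFP libraries and 1.766 for the Cre libraries), and the median absolute replicate difference was 0.0874 and 0.0764 on the log2 scale. For the control libraries, which share in the fit, the same measures were 4.154 and 0.1132. Pairs of values below are in the order replicate 1 and replicate 2. Fold changes are Cre minus GFP on the log2(normalized count + 1) scale, where the added 1 shrinks differences between low counts, and errors beside them are standard errors from limma. A gene is said to rise or fall when its Benjamini-Hochberg adjusted p over all 13965 genes was under 0.05. At the lower limit of inclusion, Zmynd15 was just inside, with 7.77 and 10.3 normalized counts in the GFP libraries and 15.7 and 8.78 in the Cre libraries, and Fcgr4 was just outside, with 12.6 and 8.40 in the GFP libraries and 9.79 and 5.27 in the Cre libraries.

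Rbm43, the siRNA target (chromosome 2, 51924448 to 51935163, minus strand of mm10), had 185 and 224 normalized counts in the control libraries, 43.7 and 46.6 in the GFP libraries and 53.8 and 32.5 in the Cre libraries. The GFP and Cre values interleave, and the log2 difference between them was −0.11 ± 0.21 (limma adjusted p = 0.834). Ppargc1a (chromosome 5, 51454250 to 51567726, minus strand) had 399 and 423 normalized counts with GFP virus and 463 and 469 with Cre virus, against 163 and 202 in the control libraries. Both Cre libraries were thus above both GFP libraries for the floxed gene itself, with a log2 difference of 0.18 ± 0.10 that did not pass the threshold (adjusted p = 0.329). The value sums reads from every exon, those outside the excised stretch included, so it is no check of excision. Directions below follow the virus labels.

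The other coactivators of the family did not move alike. Ppargc1b (chromosome 18, 61298136 to 61400431, minus strand) encodes PGC-1beta, a close relative with overlapping mitochondrial targets. It had 584 and 617 normalized counts with GFP virus and 443 and 419 with Cre virus. The Cre libraries lay between the control libraries (295 and 276) and the GFP libraries without overlap, a log2 difference of −0.48 ± 0.08 (adjusted p = 9.63e-04) that did not pass without Cre replicate 2. Pprc1, the more distant PGC-1-related coactivator, had 647 and 639.9 with GFP virus and 699.9 and 716 with Cre virus, a log2 difference of 0.14 that did not pass (adjusted p = 0.303).

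Of 25 tested transcription factors that partner with PGC-1 coactivators, 6 fell and 0 rose, against 5.99% of all genes that fell and 2.67% that rose. The list's median log2 difference was −0.04, with 0.00 for all genes. The nuclear receptor Ppara (chromosome 15, 85734983 to 85802819, plus strand), which drives fatty acid oxidation genes, had 1818 and 1918 normalized counts with GFP virus and 997 and 942 with Cre virus. Both Cre values were far below both GFP values, a log2 difference of −0.95 ± 0.09 (adjusted p = 3.11e-06), the largest in the list. Esrra (chromosome 19, 6910977 to 6921813, minus strand), the estrogen-related receptor most closely tied to PGC-1alpha at respiratory genes, had 809.9 and 726 with GFP virus and 549 and 567 with Cre virus. It fell by 0.46, with no overlap between the groups, and did not pass without Cre replicate 1. Pparg, the master regulator of fat cell formation, had 3218 and 3129.5 with GFP virus and 2490.1 and 2422 with Cre virus and fell by 0.37. The thyroid hormone receptor Thrb fell by 0.40, the oxysterol receptor Nr1h3 fell by 0.36 and Ebf2, a factor that marks brown and beige fat precursors, fell by 0.29. Without GFP replicate 2 or either Cre library, 3 of the 6 still passed.

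Of the remaining 19 partner factors, none passed the threshold. NRF1, named as a partner at genes of the respiratory chain, had nearly the same level in the 4 libraries: Nrf1 was at 338 and 321 with GFP virus and 337 and 332 with Cre virus. Gabpa, the DNA-binding subunit of GABP, had 1367 and 1378 with GFP virus and 1239 and 1286 with Cre virus (log2 difference −0.12, adjusted p = 0.259). Yy1 had a log2 difference of 0.08, Rxra of 0.06, Prdm16 of −0.20 and Foxo1 of −0.18. Among 23 tested regulators and cofactors of PGC-1, 1 fell: Lpin1, a phosphatidate phosphatase that also acts as a nuclear cofactor, had 6636 and 6702 with GFP virus and 5450.1 and 5233 with Cre virus, a fall of 0.32 (2 members fell without either control library).

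**Figure D1:**
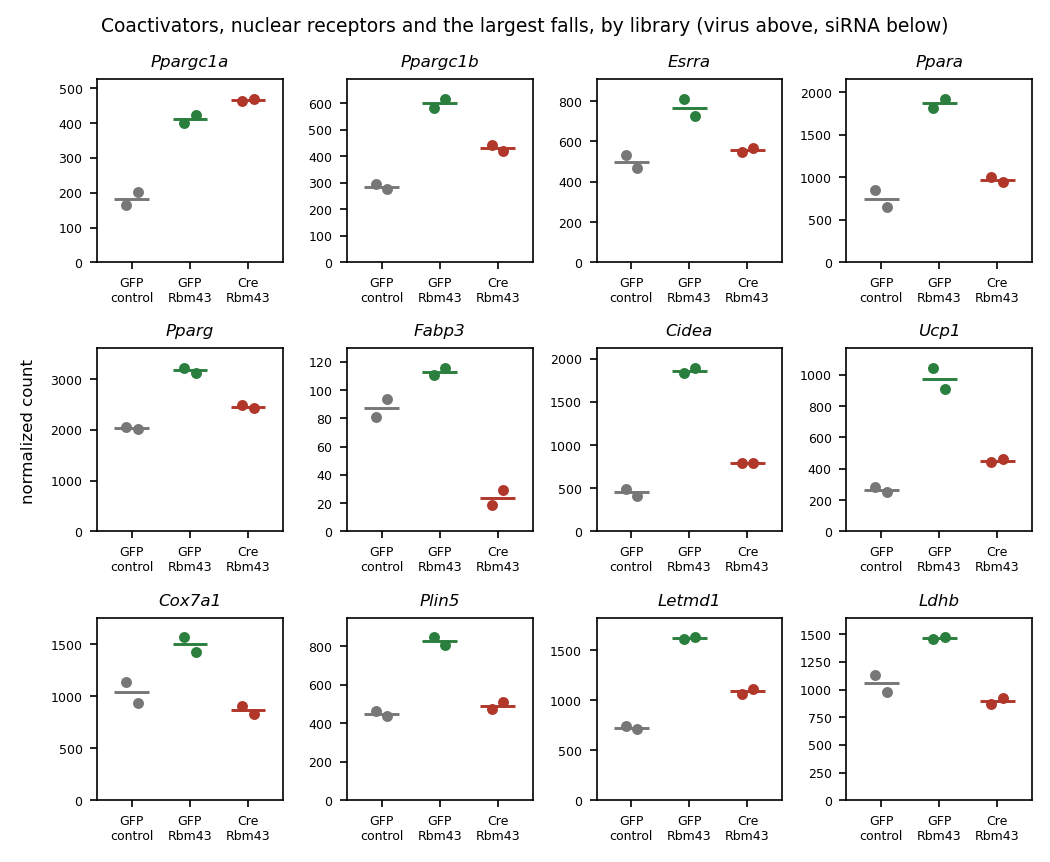
Normalized count of each library (points) and group mean (bars) for coactivators, nuclear receptors and genes that fell. Each panel has its own axis from 0, and tick labels give the virus (above) and the siRNA (below). Ppargc1a was not lower with Cre virus, while in the other 11 panels both Cre libraries lay below both GFP libraries.

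Across all genes, 1210 changed (8.66%): 837 fell (5.99%) and 373 rose (2.67%). These shares of falls and rises are the background for each list count. In all 1210 the 2 groups did not overlap. Without regard to the test, both Cre libraries lay below both GFP libraries in 27.7% of genes and above them in 26.4%. Changes were small: the median log2 change was −0.33 among genes that fell and 0.25 among genes that rose, 10 genes fell and 8 rose by more than 2-fold, and the smallest change called was 0.15. Genes that fell made up 69.2% of calls, and 56.5% when libraries were scaled to equal totals. The number of calls depended on single libraries: 303 genes passed without Cre replicate 1, 325 without Cre replicate 2, 455 without GFP replicate 2, and 2052 and 2058 without control replicate 1 or 2. The 373 rises became 68 without GFP replicate 2 and 42 without either Cre library. Of the genes named here, 62 of 95 that fell and 12 of 55 that rose passed without any 1 library. With no mean-variance trend in limma 0 genes passed, with 2375 at an unadjusted p under 0.05, while edgeR called 1340 and DESeq2 825.

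**Figure D2:**
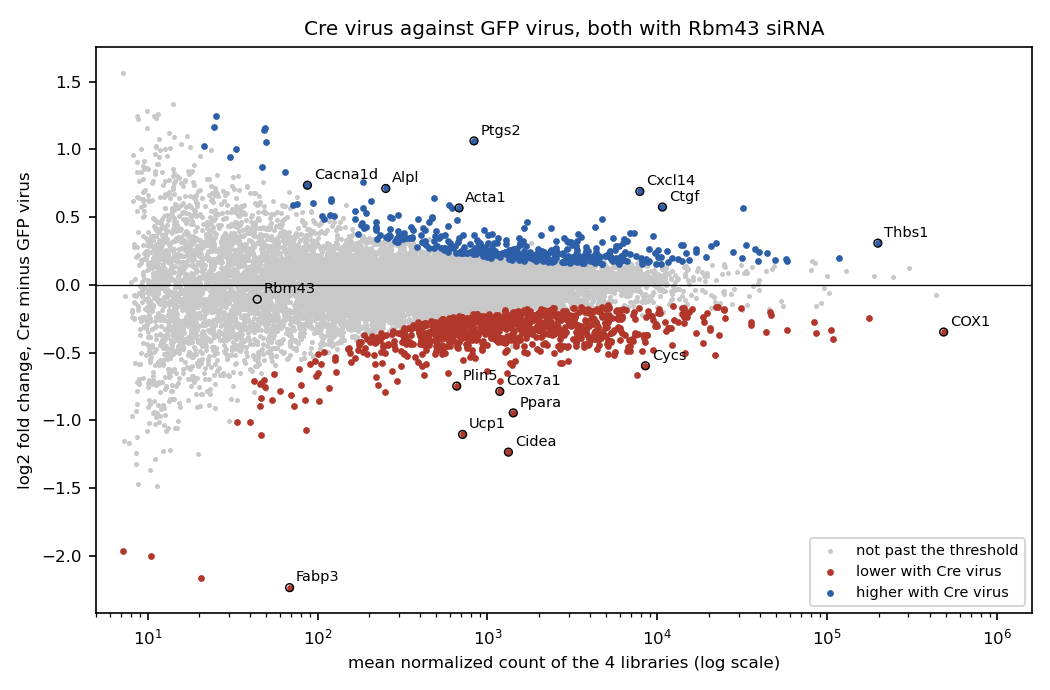
Log2 fold change, Cre minus GFP virus with Rbm43 siRNA, against the mean normalized count of the 4 libraries (log axis) for 13965 genes. Red points fell, blue points rose and grey points did not pass the threshold. Labelled falls include Cidea, Ucp1 and Ppara, and Rbm43 sits near 0.

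Genes of brown and beige fat included several of the 30 largest falls. Of 34 tested thermogenic genes, 17 fell and 1 rose, with a median of −0.41. Fabp3 (chromosome 4, 130308595 to 130315463, plus strand), the heart-type fatty acid carrier that brown fat also uses, is not among these 34 and is counted with fatty acid uptake below. Fabp3 had 111 and 116 normalized counts with GFP virus and 18.6 and 29.0 with Cre virus. Its Cre values were below the control libraries as well (81.1 and 93.7), and its log2 difference was −2.24 ± 0.21 (adjusted p = 3.11e-06). Ucp1 (chromosome 8, 83290352 to 83298452, plus strand), the uncoupling protein that turns the proton gradient into heat, had 1043 and 909 with GFP virus and 445 and 459 with Cre virus. The Cre libraries kept Ucp1 above the control libraries (284 and 248) and below the GFP libraries, a fall of 1.10 against the latter. Cidea, which sits on lipid droplets and is plentiful in brown fat, followed the same order with 488 and 415 in the control libraries, 1836 and 1893 in the GFP libraries and 788 and 795 in the Cre libraries.

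Other thermogenic members fell as well. Cox7a1, the heart and brown fat form of a complex IV subunit, had 1567 and 1426 with GFP virus and 901 and 833 with Cre virus and fell by 0.79. Its relative Cox8b, another tissue-specific subunit of complex IV, had 349.6 and 385 with GFP virus and 232 and 215 with Cre virus. Plin5, which coats lipid droplets at mitochondria, had 848 and 806 with GFP virus and 473 and 512 with Cre virus. In these 3 genes no Cre library reached a GFP library. Letmd1, a mitochondrial inner membrane protein needed for heat production in brown fat, fell by 0.57, glycerol kinase (Gk) by 0.50, Elovl3, which lengthens fatty acids, by 0.41, and the oxoprolinase Oplah by 0.48. The member that rose was Hspb7, a small heat shock protein, with 748 and 715 with GFP virus and 937 and 955 with Cre virus. Without Cre replicate 1 or 2, 11 and 10 of the 17 falls passed. In bulk RNA, fewer cells of a type and less RNA per cell cannot be told apart, and this holds for each fat-cell gene group below. Beside these falls, the summed level of 32 mature adipocyte markers was 538774 and 557645 in the GFP libraries and 466569 and 464624 in the Cre libraries. That of all 17 listed preadipocyte and fibroblast markers was 615335 and 587985 with GFP virus and 642761 and 638371 with Cre virus. The part of either in the falls was not tested.

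Nuclear genes of the respiratory chain fell almost as a block. Of 81 genes for subunits of complexes I to IV, cytochrome c and ATP synthase, 72 fell and 0 rose (median −0.36). Both Cre libraries were below both GFP libraries in 79 of the 81, against 27.7% of all genes. The range over members ran from −0.79 (Cox7a1) to 0.59 (Cox6a2, a muscle-type subunit at 30.1 and 42.0 with GFP virus and 49.9 and 58.8 with Cre virus, not past the threshold). Without Cre replicate 1 the count was 45, and without each other library it lay between 49 and 77.

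By complex, list medians ran from −0.42 to −0.33. Complex I, which takes electrons from NADH, had 32 of 36 subunits lower (median −0.36; 20 without either Cre library). Its accessory subunit Ndufb4 had 1019.6 and 988 with GFP virus and 680.3 and 698 with Cre virus and a fall of 0.54. Ndufa6, another accessory subunit, had 1899 and 1938 with GFP virus and 1373 and 1349 with Cre virus, and the core subunit Ndufs1 had 5275 and 5354 with GFP virus and 4110.1 and 4009 with Cre virus. These 3 genes shared a wide gap between the GFP pair and the Cre pair and a narrow spread within each. All 4 subunits of complex II, the succinate dehydrogenase, fell (median −0.39), also with each library left out in turn. Its membrane anchor Sdhd had 6058 and 6031 with GFP virus and 4169 and 4336 with Cre virus, a fall of 0.51, and the flavoprotein Sdha had 12757 and 12995 with GFP virus and 10313 and 10389 with Cre virus, a fall of 0.31.

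All 10 genes of complex III and cytochrome c fell, with the lowest median of the 5 groups (−0.42; 5 without Cre replicate 1). Cytochrome c itself, Cycs, had 10145 and 10334 normalized counts with GFP virus and 6692 and 6839.6 with Cre virus, a log2 difference of −0.60 ± 0.05 (adjusted p = 4.76e-07). The Rieske iron-sulfur protein Uqcrfs1 had 6464 and 6541 with GFP virus and 4423 and 4664 with Cre virus. Both genes were close to their control levels with Cre virus: the control libraries had 6579.7 and 6372 for Cycs and 4897 and 4682 for Uqcrfs1. Complex IV, which passes electrons to oxygen, had 14 of 15 subunits lower (median −0.37; 8 and 9 without Cre replicate 1 or 2), with Cox5a at 3896 and 3748 with GFP virus and 2911 and 2763 with Cre virus. ATP synthase had 12 of 16 lower (median −0.33), with log2 differences of −0.46 for Atp5j2 and −0.33 for the alpha subunit Atp5a1.

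Promoter windows of 3 of these genes and of Ppara are shown because their starts hold letters of motifs bound by PGC-1 partner factors. The windows run from 250 bases before to 50 after a gene's start, are from RefSeq (GRCm38.p6, the same build as mm10), follow RefSeq's starts, which can differ from the GENCODE gene ends given above, and are written 5′ to 3′ on the gene's strand. Capitals mark every match, on either strand, to the searched motifs: the ERR response element TCAAGGTCA, its half-site AAGGTCA (which the element contains), the NRF1 site (GCGC, any base, then TGCGC), the ETS and GABP site CCGGAAG, the cAMP response element TGACGTCA, the direct repeat for PPAR and RXR (AGGTCA 2 times, with any 1 base between) and the SRF CArG box. Sdhd (chr9:50603800-50604099, minus strand) has an NRF1 site, an ETS and GABP site and an ERR element, and Ndufb4 (chr16:37654319-37654618, minus strand) has 3 NRF1 sites around an ERR half-site. Cycs (chr6:50566520-50566819, minus strand) has a cAMP response element, and Ppara (chr15:85735526-85735825, plus strand) has an NRF1 site. The Ppara window lies inside the gene as GENCODE draws it, downstream of that annotation's first base.
Sdhd: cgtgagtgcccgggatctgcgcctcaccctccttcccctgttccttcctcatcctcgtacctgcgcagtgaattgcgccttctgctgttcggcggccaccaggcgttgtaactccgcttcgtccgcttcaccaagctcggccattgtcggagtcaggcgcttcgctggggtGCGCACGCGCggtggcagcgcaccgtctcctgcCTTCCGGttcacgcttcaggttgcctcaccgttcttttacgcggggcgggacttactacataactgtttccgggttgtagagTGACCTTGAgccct
Ndufb4: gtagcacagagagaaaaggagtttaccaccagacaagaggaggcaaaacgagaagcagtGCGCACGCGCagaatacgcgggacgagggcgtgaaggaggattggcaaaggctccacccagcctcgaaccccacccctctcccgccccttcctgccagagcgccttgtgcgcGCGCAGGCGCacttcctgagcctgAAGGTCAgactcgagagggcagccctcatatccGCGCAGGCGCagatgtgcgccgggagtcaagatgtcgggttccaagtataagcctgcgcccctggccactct
Cycs: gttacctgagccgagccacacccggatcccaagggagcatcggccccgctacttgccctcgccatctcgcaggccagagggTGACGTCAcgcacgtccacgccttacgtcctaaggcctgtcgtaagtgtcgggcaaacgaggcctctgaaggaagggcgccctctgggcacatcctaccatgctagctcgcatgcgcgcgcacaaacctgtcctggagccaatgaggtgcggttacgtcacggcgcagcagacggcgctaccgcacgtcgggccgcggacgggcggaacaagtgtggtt
Ppara: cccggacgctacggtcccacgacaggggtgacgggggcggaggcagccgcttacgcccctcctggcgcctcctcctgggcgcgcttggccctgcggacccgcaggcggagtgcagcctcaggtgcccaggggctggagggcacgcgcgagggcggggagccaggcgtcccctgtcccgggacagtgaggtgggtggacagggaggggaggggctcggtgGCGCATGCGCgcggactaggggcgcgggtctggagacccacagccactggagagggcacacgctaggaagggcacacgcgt

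The Sdhd element at 50603805 to 50603813 also lies in the window of its divergent neighbour Timm8b, a mitochondrial import gene chosen here for that shared window after its values were seen. Timm8b had 1321 and 1252 with GFP virus and 1050.3 and 1071 with Cre virus and fell by 0.28. Its fall did not pass when either GFP library or either Cre library was left out. RefSeq windows matched 10846 of 13963 genes with a symbol of their own, 681 of those that fell and 68 of the 81 respiratory genes. Genes with several windows (1.28 windows per matched gene on average) counted as holding a motif when any window did. An ERR half-site stood in 3.92% of all matched genes, in 6.90% of genes that fell, in 3.93% of genes that rose and in 13.24% of the respiratory genes. The full ERR element stood in 0.32%, 0.44%, 0.71% and 2.94% of the same sets (35, 3, 2 and 2 genes). The cAMP response element stood in 3.59%, 3.52%, 2.14% and 7.35% of them, and the direct repeat for PPAR and RXR in 0.05%, 0.15%, 0.0% and 0.0%. NRF1 sites stood in 11.11% of all matched genes, 10.72% of genes that fell, 4.64% of genes that rose and 26.47% of the respiratory genes. The ETS and GABP site stood in 19.32%, 21.73%, 5.36% and 23.53% of the same sets, and in 36.76% of 68 mitochondrial ribosomal protein genes. In other lists with falls, 23 matched thermogenic genes held the ERR half-site, NRF1 and ETS sites in 4.35% each, and 31 matched genes of fatty acid uptake and beta-oxidation in 3.23%, 16.13% and 9.68%. A match is a description of letters in this window and no evidence that a factor binds there.

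mRNAs encoded in mitochondrial DNA were also lower. Of 13, 11 fell and 0 rose (median −0.32), and in all 13 both Cre libraries lay below both GFP libraries. Their share of all reads in genes was 5.313% and 5.561% in the GFP libraries and 4.321% and 4.419% in the Cre libraries, with 4.561% and 4.473% in the control libraries. ND1, a core subunit of complex I, had 120060.0 and 126328 with GFP virus and 91377 and 95382 with Cre virus. COX1, the catalytic subunit of complex IV, had 536235 and 546629 with GFP virus and 419849 and 430865 with Cre virus, a fall of 0.35. The count of falls was 6 without GFP replicate 2, and 2 and 5 without Cre replicate 1 or 2.

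Genes that copy and transcribe mitochondrial DNA were listed with factors that act on its mRNAs and their translation. No listed member that copies or transcribes this DNA passed the threshold. Of 20 genes, 3 fell (median −0.11; 5 without either control library, 1 without GFP replicate 2, and 0 and 1 without Cre replicate 1 or 2). These were Lrpprc, which stabilises mitochondrial mRNAs and had 1794 and 2012 with GFP virus and 1532 and 1480.0 with Cre virus, and the translation elongation factors Gfm1 and Tufm, with log2 differences of −0.33 and −0.34. Of 77 mitochondrial ribosomal proteins, 47 fell and 0 rose (median −0.28), and 72 had both Cre libraries below both GFP libraries. Mrpl12, which also binds the mitochondrial RNA polymerase, had 1723 and 1699 with GFP virus and 1263 and 1239 with Cre virus. Mrpl24 stood apart at 849 and 828 with GFP virus and 870.2 and 839 with Cre virus, a log2 difference of 0.03 that did not pass. The count of 47 was 30 and 23 without GFP replicate 1 or 2 and 9 and 15 without Cre replicate 1 or 2.

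Of 48 import and chaperone genes, 28 fell and 0 rose (median −0.25; 16 and 13 without GFP replicate 1 or 2, 6 and 11 without Cre replicate 1 or 2). Chchd10, a protein of the intermembrane space at the cristae, had 3403 and 3171 with GFP virus and 2222 and 2186 with Cre virus and fell by 0.58. Grpel1, the nucleotide exchange factor of mitochondrial HSP70, had 3231 and 3269 with GFP virus and 2379.5 and 2372 with Cre virus. Dnajc15 fell by 0.50, Chchd3 by 0.45 and Timm44 by 0.39. Respiratory complex assembly factors fell in 16 of 42 (median −0.27; 7 and 8 without GFP replicate 1 or 2, 5 and 3 without Cre replicate 1 or 2), with the copper chaperone Cox17 at 1039 and 1105 with GFP virus and 801 and 794 with Cre virus. Of 33 genes for coenzyme Q, heme and iron-sulfur clusters, 15 fell and 1 rose (9 and 5 without GFP replicate 1 or 2, 4 and 6 without Cre replicate 1 or 2). The scaffold Iscu fell by 0.41 and Coq9 by 0.39. The member that rose was Slc25a37, the mitochondrial iron importer mitoferrin-1, with 360.3 and 398 with GFP virus and 526 and 519 with Cre virus.

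**Figure D3:**
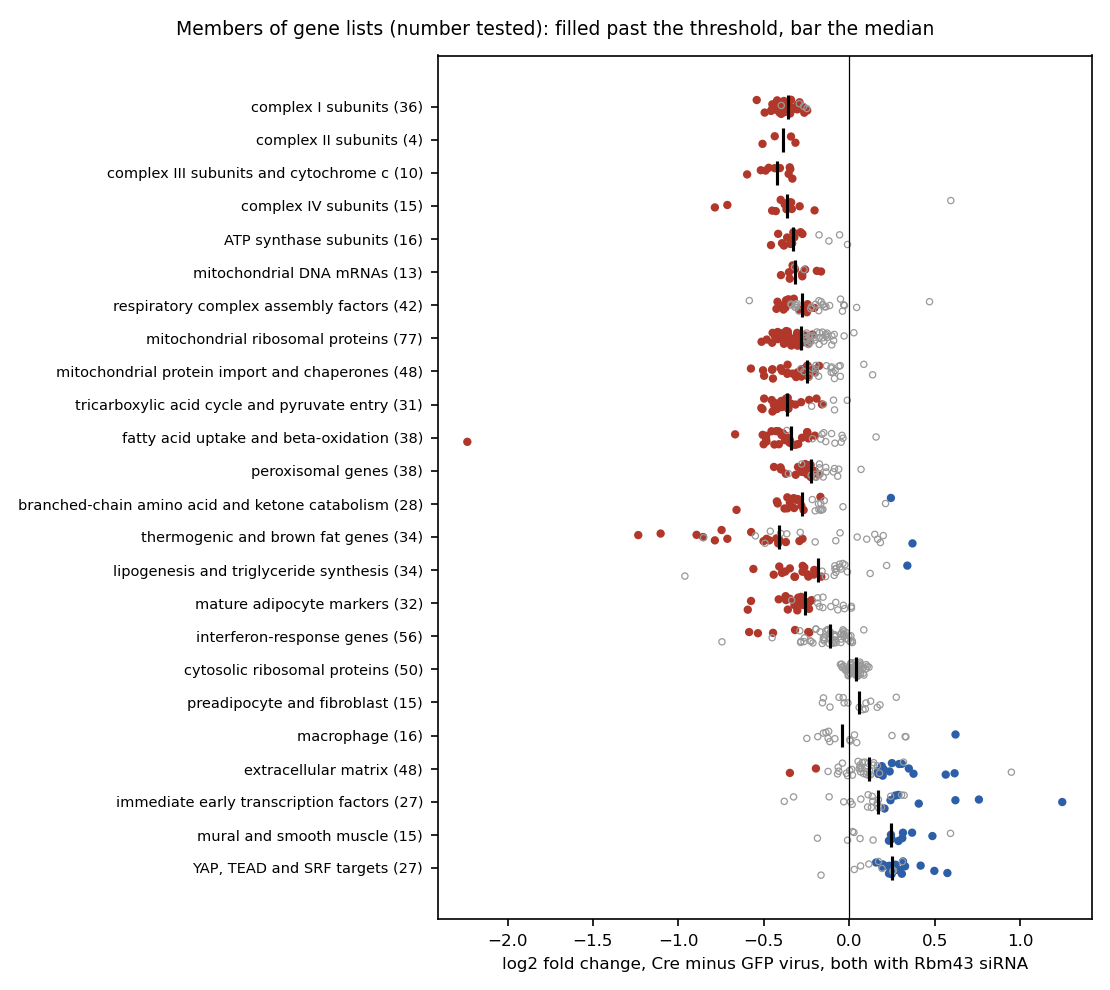
Log2 fold change, Cre minus GFP virus with Rbm43 siRNA, for each tested member (points) of 24 gene lists, with the number tested in brackets. Filled points passed the threshold (red fell, blue rose), open points did not, and the black bar is the list median. Respiratory and tricarboxylic acid cycle lists lie to the left, cytosolic ribosomal proteins at 0 and YAP, TEAD and SRF targets to the right.

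Fuel pathways that feed the respiratory chain fell with it. The first list here includes the 4 complex II subunits, which all fell and are already counted among the 81 respiratory genes. Of 31 genes of the tricarboxylic acid cycle and pyruvate entry, 26 fell and 0 rose (median −0.37), and between 22 and 27 fell with each library left out in turn. Sucla2, a subunit of succinyl-CoA ligase, had 6497 and 6676 normalized counts with GFP virus and 4522 and 4808 with Cre virus, a log2 difference of −0.50 ± 0.05 (adjusted p = 4.07e-06). Pdhb of pyruvate dehydrogenase had 7967 and 7934 with GFP virus and 5684 and 5967 with Cre virus. In both genes the Cre pair was well separated from the GFP pair. The malate dehydrogenases, which also serve the malate-aspartate shuttle, fell too: Mdh1 by 0.44 and Mdh2 by 0.37. They were the 2 members that fell among 7 genes of kynurenine aminotransferases and that shuttle. The aminotransferase Got2 was at 2329 and 2175 with GFP virus and 2224 and 2201 with Cre virus, a log2 difference of −0.02.

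Of 38 genes of fatty acid uptake and beta-oxidation, 26 fell and 0 rose (median −0.34), and 19 to 27 fell with each library left out in turn. The trifunctional protein subunits Hadha and Hadhb, which carry out the last steps of the long-chain cycle, fell by 0.43 and 0.50. Hadhb had 16821 and 17059.9 with GFP virus and 12019 and 11917 with Cre virus. The thiolase Acaa2 had 9417 and 9287 with GFP virus and 5869 and 5902 with Cre virus and a fall of 0.67. Acyl-CoA dehydrogenases fell as well, Acadvl (very long chain) by 0.48 and Acadm (medium chain) by 0.49. Acadm had 7371 and 7139 in the control libraries, 9249 and 9571 in the GFP libraries and 6717 and 6713 in the Cre libraries, so the Cre libraries were below both other groups. Slc25a20, the carrier that brings acylcarnitines into mitochondria, had 2859.7 and 2906 with GFP virus and 1962 and 2098 with Cre virus.

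Genes of peroxisomes and of branched-chain amino acid catabolism were lower too. Of 38 peroxisomal genes, 20 fell and 0 rose (median −0.22; 8 without GFP replicate 2, 6 and 5 without Cre replicate 1 or 2). Hacl1, the enzyme of alpha-oxidation, had 1082 and 1224 with GFP virus and 839 and 856 with Cre virus. Ech1, an isomerase of fatty acid oxidation, had 4807 and 4857 with GFP virus and 3631 and 3697 with Cre virus, and the control libraries were above the Cre libraries for both (1866 and 1804 and 4845 and 4771). Of 28 genes of branched-chain amino acid and ketone catabolism, 16 fell and 1 rose (median −0.27; 8 without GFP replicate 2, 8 and 6 without Cre replicate 1 or 2). Acat1 fell by 0.42, Pcca of propionyl-CoA carboxylase fell by 0.36 and Hibch fell by 0.36. The member that rose was the cytosolic aminotransferase Bcat1, with 1211 and 1159 with GFP virus and 1391 and 1415 with Cre virus.

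Of 37 mitochondrial carriers, 11 fell and 0 rose (median −0.16; 20 without either control library, 7 without GFP replicate 2, 5 without either Cre library). Slc25a42, which carries coenzyme A, had 465 and 575 with GFP virus and 335 and 316 with Cre virus, and the ADP/ATP carrier Slc25a5 had 9454 and 9604 with GFP virus and 7041 and 7466 with Cre virus. Of 24 antioxidant genes, 7 fell and 1 rose (3 without either GFP library, 2 without either Cre library). Peroxiredoxin 3 (Prdx3), a peroxidase of the matrix, had 2399 and 2379 with GFP virus and 1683 and 1728 with Cre virus and a fall of 0.49, and it stood at 3515 and 3439 in the control libraries. Sod2, the matrix superoxide dismutase, fell by 0.41, and heme oxygenase Hmox1 rose by 0.24. For the lists here, the shares over all genes were 5.99% for falls and 2.67% for rises. Among 20 genes of fusion, fission and mitophagy 5 fell (8 without control replicate 2, 3 without either GFP library, 2 and 1 without Cre replicate 1 or 2), with log2 differences of −0.44 for the transport GTPase Rhot2 and −0.18 for the fusion protein Mfn2.

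Levels with Cre virus were set beside the control libraries, which had GFP virus and no Rbm43 siRNA. The Rbm43 siRNA comparison shares the GFP libraries with the Cre comparison, so opposite signs of the 2 comparisons are not independent. Of the 81 nuclear respiratory genes, 73 rose with Rbm43 siRNA (background 13.7%; median 0.45) and 0 fell (background 9.82%). As a percent of the GFP mean, their summed count was 77.8 and 70.1 in the control libraries and 77.5 and 78.5 in the Cre libraries. Against the control libraries directly, 37 of the 81 had both Cre libraries above both control libraries (background 27.8%), 9 had them below (background 26.8%) and 35 overlapped. For all 40 listed genes of fatty acid uptake and beta-oxidation, the summed count was 78.4% and 74.9% in the control libraries and 81.4% and 81.8% in the Cre libraries. Of the 38 tested, 10 lay above control (background 27.8%), 19 below (background 26.8%) and 9 overlapped.

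In 2 lists with a small Rbm43 siRNA median (0.15 for peroxisomal genes and 0.13 for branched-chain amino acid and ketone catabolism), summed levels with Cre virus were below control. Others with a similar median did not share this: for mitochondrial carriers (median 0.17) the sum was 85.2% and 81.9% of the GFP mean in the control libraries and 86.5% and 88.5% in the Cre libraries, and for PGC-1 partner factors (median 0.16) 83.9% and 84.7% and then 92.1% and 91.4%. Summed peroxisomal genes were at 92.1% and 90.6% of the GFP mean in the control libraries and at 85.7% and 84.9% in the Cre libraries. For branched-chain amino acid and ketone catabolism the values were 94.6% and 91.5% and then 83.5% and 83.7%. Of its 28 members, 15 had both Cre libraries below both control libraries (background 26.8%) and 4 above (background 27.8%). The mitochondrial DNA mRNAs were at 82.7% and 80.6% in the control libraries and at 78.0% and 80.0% in the Cre libraries. Interferon-response genes gave the other pattern: 33 of 56 were above control with Cre virus (background 27.8%), 2 below (background 26.8%) and 21 overlapped. Of these 56, 37 rose with Rbm43 siRNA (background 13.7%, median 0.41), which the control libraries did not receive. The sum of all 57 listed interferon-response genes was at 73.1% and 80.9% of the GFP mean in the control libraries and at 90.9% and 92.7% in the Cre libraries.

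**Figure D4:**
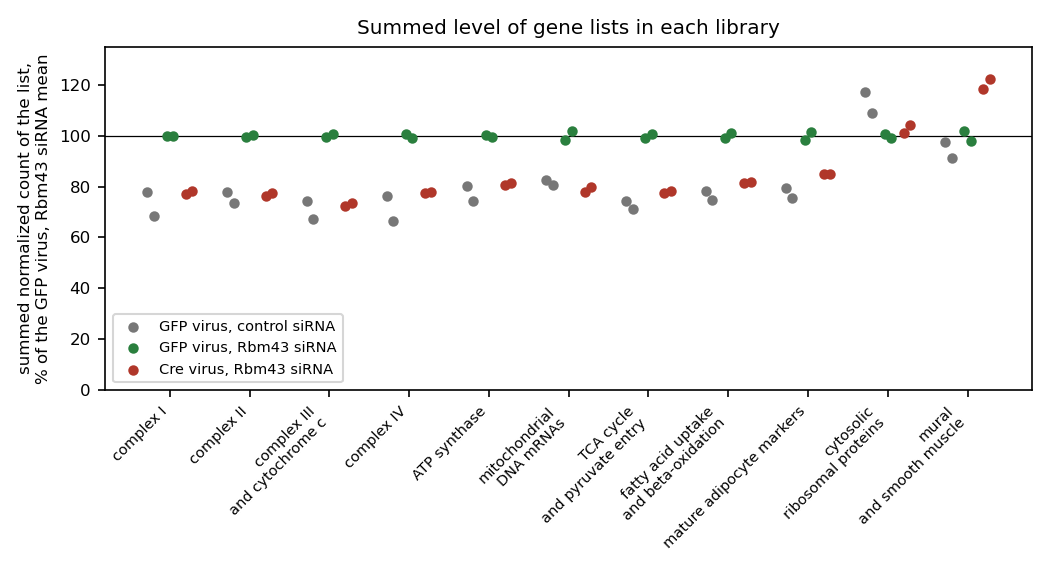
Summed normalized count of each gene list in each library, as a percent of the mean of the 2 GFP libraries with Rbm43 siRNA (line at 100). Grey points are GFP virus with control siRNA, green points GFP virus and red points Cre virus, both with Rbm43 siRNA. With Cre virus complex I is at 77.1 and 78.4, cytosolic ribosomal proteins are at 101.1 and 104.4 and mural and smooth muscle markers at 118.4 and 122.3.

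Genes of the fat cell itself were lower. Of 32 mature adipocyte markers, 19 fell and 0 rose (median −0.26; 11 without GFP replicate 2, 10 and 7 without Cre replicate 1 or 2). Adiponectin (Adipoq), the main fat-cell hormone, had 22453 and 23077 with GFP virus and 18345 and 18219 with Cre virus, against 22094 and 21331 in the control libraries. Retinol-binding protein Rbp4 had 3211 and 3142 with GFP virus and 2159 and 2105 with Cre virus. The insulin-responsive glucose transporter Slc2a4 had 1689 and 1658 with GFP virus and 1055 and 1164 with Cre virus and fell by 0.59. Adipsin (Cfd) was not called, at 1908 and 2069.9 with GFP virus and 1991 and 2018 with Cre virus. Of 24 lipid droplet proteins and lipases, 15 fell and 0 rose (8 without GFP replicate 2, 5 without either Cre library), with log2 differences of −0.30 for hormone-sensitive lipase (Lipe), −0.22 for the droplet coat Plin1 and −0.41 for the glycerol channel Aqp7.

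Of 34 genes of lipogenesis and triglyceride synthesis, 17 fell and 1 rose (median −0.18; 11 without GFP replicate 2, 7 and 8 without Cre replicate 1 or 2). Thrsp, a regulator of lipogenesis, had 971 and 849.6 in the control libraries, 3529 and 3542 in the GFP libraries and 2285 and 2513 in the Cre libraries. Acacb, the acetyl-CoA carboxylase that limits fatty acid entry into mitochondria, had 5244 and 5244 with GFP virus and 3780.2 and 3941 with Cre virus. Lpin3 rose by 0.34. For this list and the next, the shares over all genes were 5.99% for falls and 2.67% for rises. Of 28 genes of glucose uptake and glycolysis, 5 fell and 1 rose (median −0.08; 10 falls without either control library, 3 without GFP replicate 1 or either Cre library). Ldhb, the lactate dehydrogenase form of oxidative tissues, had 1454 and 1475 with GFP virus and 870.2 and 925 with Cre virus and fell by 0.71, below the control libraries (1132 and 979.8). The glucose transporter Slc2a1 rose, with 2812 and 2513 with GFP virus and 3064 and 3319 with Cre virus.

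Of 27 genes of adrenergic and cAMP signaling, 7 fell and 0 rose (median −0.06; 3 without GFP replicate 2 and 2 without Cre replicate 2). The beta1-adrenergic receptor Adrb1 had 62.1 and 66.2 normalized counts with GFP virus and 29.4 and 29.0 with Cre virus, a log2 difference of −1.11 ± 0.23 (adjusted p = 0.00352). Its Cre values were at those of the control libraries (32.2 and 28.0), and it did not pass without GFP replicate 2 or either Cre library. The alpha1A receptor Adra1a had 386 and 405 with GFP virus and 271 and 277 with Cre virus, the kinase regulatory subunit Prkar2b 5881 and 6136 with GFP virus and 4696 and 4689 with Cre virus. Among 28 insulin signaling genes, 3 fell and 2 rose (8 falls without either control library, 1 without GFP replicate 2, and 1 and 0 without Cre replicate 1 or 2). These counts stand beside 5.99% of all genes that fell and 2.67% that rose. Pde3b, the phosphodiesterase through which insulin restrains lipolysis, fell by 0.31, and the insulin-like growth factor receptor Igf1r rose by 0.18. Of 9 tested genes of creatine and calcium cycling, Cacna1d, a voltage-gated calcium channel, and Alpl, an alkaline phosphatase, rose (1 of the 2 without GFP replicate 2 or either Cre library) and Atp2a3, a calcium pump, fell by 0.76. Creatine kinase Ckb was at 973 and 897 with GFP virus and 968 and 1024 with Cre virus and was not called.

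Several of the 30 largest falls belonged to none of the gene lists. Dnajc22, a membrane protein with a J domain, had 112 and 118 with GFP virus and 66.6 and 43.9 with Cre virus and fell by 1.07. Mmd2 had 105 and 112 with GFP virus and 68.5 and 51.8 with Cre virus, with 244 and 276 in the control libraries, so the Cre libraries were below both other groups. Ffar4, a receptor for long-chain fatty acids, had 279.7 and 285 with GFP virus and 163 and 174 with Cre virus, below the control libraries (248 and 245). Gys2, the liver-type glycogen synthase, had 675 and 767 with GFP virus and 456 and 458 with Cre virus. Tmem45b had 1566 and 1638 with GFP virus and 1012 and 1029 with Cre virus and 1631 and 1383 in the control libraries, so the GFP and control libraries overlapped and the Cre libraries stood below both. Car2, a carbonic anhydrase, fell by 0.68, the pacemaker channel Hcn2 by 0.64, the serine hydroxymethyltransferase Shmt1 by 0.74 and the inositol phosphatase Impa2 fell by 0.79. The GFP libraries of Impa2 differed from each other, 379 and 261, with 192 and 171 in the Cre libraries.

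Fewer genes rose. Ptgs2, Cxcl14, Vdr, Alpl, Ctgf, Il1rl1, Acta1, Actg2, Lmod1, Plk2, Slc25a37 and Hspb7 were the named rises that passed without any 1 library. Among the named genes whose mean reached 50 normalized counts, the largest rise was in prostaglandin synthesis. Ptgs2 (chromosome 1, 150100031 to 150108227, plus strand), the inducible cyclooxygenase, had 597 and 484 normalized counts with GFP virus and 1067 and 1185 with Cre virus. The control libraries (573 and 550.2) lay with the GFP libraries, and the log2 difference was 1.06 ± 0.09 (adjusted p = 1.02e-06). Of 19 tested genes of prostaglandin synthesis and receptors, 4 rose and 3 fell (median 0.12; 5 rises without either control library or GFP replicate 1, and 1 without GFP replicate 2 or either Cre library). Ptgs1, the constitutive cyclooxygenase, had 415 and 326 with GFP virus and 487 and 485 with Cre virus. Slco2a1, a prostaglandin transporter, rose by 0.37 and the phospholipase Pla2g4a by 0.25, while the synthase Ptges2 fell by 0.35. Over all genes, 2.67% rose and 5.99% fell.

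Of 27 immediate early transcription factors, 8 rose and 0 fell (median 0.17; 1 without GFP replicate 2 and 1 without either Cre library). The orphan nuclear receptors Nr4a1 and Nr4a3 rose by 0.76 and 1.25. Nr4a1 had 165 and 114 with GFP virus and 216 and 250.3 with Cre virus, with the GFP libraries apart from each other, and Nr4a3 had 18.5 and 11.2 with GFP virus and 34.3 and 36.9 with Cre virus. Ier3 had 938 and 705 with GFP virus and 1074 and 1084 with Cre virus, Junb rose by 0.29 and Klf6 by 0.21. Fosb and Atf3 went the other way without passing (−0.33 and −0.38). For this list and the next, the shares over all genes were 2.67% for rises and 5.99% for falls. Among inflammatory NF-kB targets, 3 of 27 rose and 1 fell (8 rises without either control library, 2 and 1 without Cre replicate 1 or 2). Besides Ptgs2 these were the macrophage growth factor Csf1, with 12985 and 11716 with GFP virus and 15055 and 15159 with Cre virus, and the inducible nitric oxide synthase Nos2, with 605 and 365 with GFP virus and 702 and 711 with Cre virus. Nos2 in GFP replicate 1 was nearer to the Cre libraries than to GFP replicate 2. Il6 was at 67.0 and 64.4 with GFP virus and 82.2 and 112 with Cre virus, a log2 difference of 0.54 that did not pass (adjusted p = 0.0721).

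Genes of the contractile cytoskeleton rose together. YAP and TEAD respond to cell tension and SRF to the state of actin, and they share targets in adhesion and contraction. Of 27 such targets, 18 rose and 0 fell (median 0.25), and in 25 both Cre libraries were above both GFP libraries, against 26.4% of all genes. Ctgf, a secreted YAP target, had 9637 and 7636 normalized counts with GFP virus and 12771 and 12779.8 with Cre virus, a log2 difference of 0.57 ± 0.07 (adjusted p = 4.98e-05). Ankrd1 had 453 and 333 with GFP virus and 544 and 553 with Cre virus, and Cyr61 had 6306 and 5472 with GFP virus and 7501 and 7239 with Cre virus. In all 3 genes the GFP libraries differed from each other more than the Cre libraries did. Without GFP replicate 2 the count fell from 18 to 7, and without Cre replicate 1 or 2 to 5 and 3.

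Members that bind actin were among those that rose. Filamin A (Flna) had 34372 and 33838 with GFP virus and 40946 and 41111 with Cre virus, tropomyosin Tpm1 had 13061 and 12506 with GFP virus and 15371 and 15908 with Cre virus and transgelin (Tagln) had 19337 and 18058 with GFP virus and 22460.1 and 23187 with Cre virus. In all 3 the lowest Cre value was above the highest GFP value. The muscle actins Actg2 and Acta1 rose by 0.42 and 0.57, and Acta2 by 0.24. Actin genes are near-identical in coding sequence, and how reads that fit several were counted is not given in the sources used here, so the split between them is uncertain. The SRF CArG box, searched by its name, stood in the promoter window of 33.33% of 21 matched members of this list and in 1.59% of all matched genes. The list was made of known targets, those of SRF among them, so this share follows from the choice and does not bear on the rises. Over all matched genes that rose the share was 3.21%, and over those that fell 1.17%. Windows of Acta1 (chr8:123894726-123895025, minus strand) and Myl9, a myosin light chain (chr2:156775214-156775513, plus strand), are shown for that box, in capitals.
Acta1: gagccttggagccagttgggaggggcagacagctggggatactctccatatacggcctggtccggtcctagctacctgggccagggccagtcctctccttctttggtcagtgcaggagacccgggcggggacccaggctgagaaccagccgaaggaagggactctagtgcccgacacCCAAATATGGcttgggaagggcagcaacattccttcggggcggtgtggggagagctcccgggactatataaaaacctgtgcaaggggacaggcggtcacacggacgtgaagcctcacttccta
Myl9: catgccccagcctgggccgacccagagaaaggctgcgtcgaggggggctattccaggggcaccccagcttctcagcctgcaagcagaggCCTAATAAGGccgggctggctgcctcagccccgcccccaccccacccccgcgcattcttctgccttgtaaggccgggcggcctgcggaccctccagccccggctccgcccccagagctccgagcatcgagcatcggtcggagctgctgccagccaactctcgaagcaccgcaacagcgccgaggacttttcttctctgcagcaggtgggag

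Myl9 had 4905 and 4706 with GFP virus and 5666 and 5748 with Cre virus, a rise of 0.25, and Acta1 had 590.4 and 507 with GFP virus and 796 and 828 with Cre virus. Among 48 extracellular matrix genes, 15 rose and 2 fell (median 0.11; 4 rises without GFP replicate 2, 3 and 2 without Cre replicate 1 or 2). Thrombospondin 1 (Thbs1) had 183613 and 170787 with GFP virus and 221645 and 216839 with Cre virus. Its Cre libraries were near the control libraries (214548 and 230630.0). The protease inhibitor Timp1 rose by 0.35, tenascin C (Tnc) by 0.29 and osteopontin (Spp1) by 0.38. Elastin (Eln) fell by 0.35, and Col15a1, a basement membrane collagen, by 0.20. The summed list was at 112.8% and 115.7% of the GFP mean in the control libraries and at 109.6% and 109.0% in the Cre libraries.

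**Figure D5:**
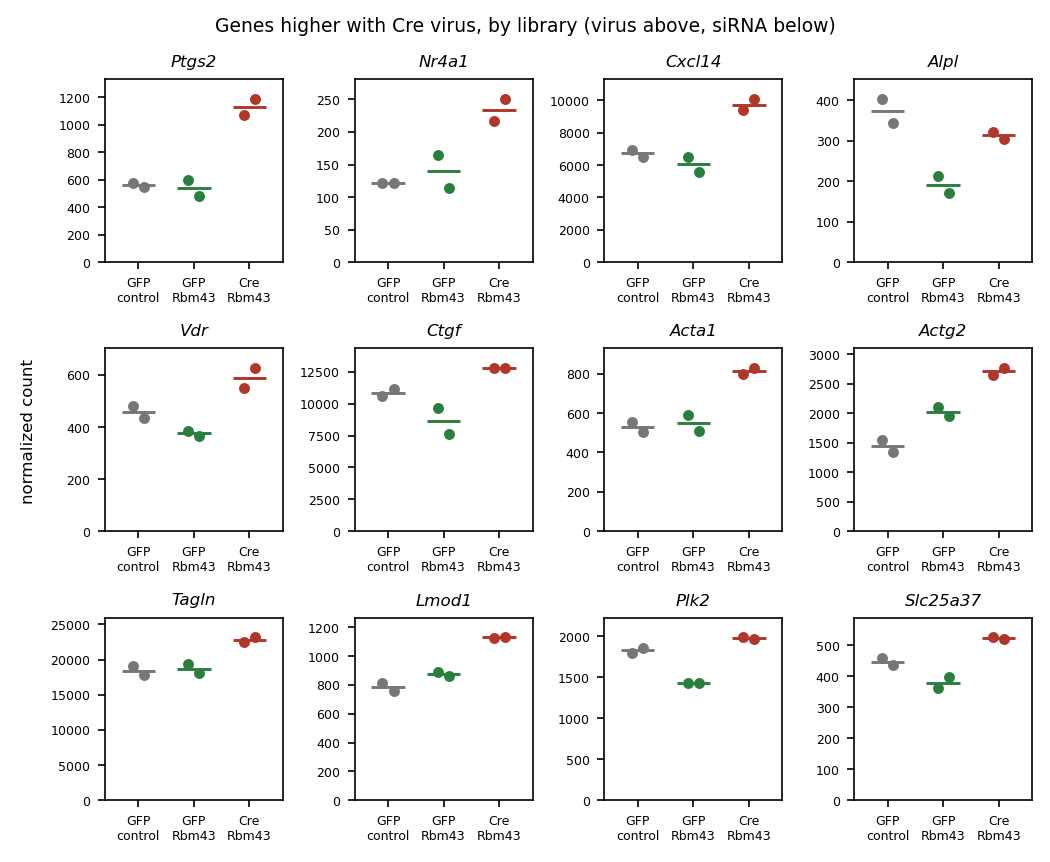
Normalized count of each library (points) and group mean (bars) for 12 genes that rose with Cre virus, each panel with its own axis from 0. Tick labels give the virus (above) and the siRNA (below). Both Cre libraries lie above both GFP libraries in every panel, and for Ptgs2, Cxcl14 and Actg2, among others, they also lie above the control libraries.

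Among 24 secreted adipokines, 3 rose and 4 fell (2 falls without GFP replicate 2 or either Cre library). These adipokine counts stand beside 2.67% of all genes that rose and 5.99% that fell. The chemokine Cxcl14, which brown fat releases, had 6513 and 5566 normalized counts with GFP virus and 9376 and 10065 with Cre virus, a rise of 0.69. Nrg4, another brown fat factor, had 189 and 247 with GFP virus and 166 and 141 with Cre virus and fell by 0.50. Of the other large rises, the vitamin D receptor Vdr had 385 and 368 with GFP virus and 548 and 626 with Cre virus, with 483 and 435 in the control libraries. The interleukin-33 receptor Il1rl1 rose by 0.57, the BMP pseudoreceptor Bambi by 0.61, the BMP receptor Bmpr1b by 0.54, the retinoic acid carrier Crabp1 by 0.50 and the integrin Itga4 by 0.51. Nipal1, a magnesium transporter, rose by 0.84 at low counts, 49.5 and 42.0 with GFP virus and 75.4 and 89.6 with Cre virus. The chromatin protein Hmga2 had 234 and 218 with GFP virus and 328 and 311 with Cre virus.

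Markers of other cell types were counted beside these rises. Of 15 markers of mural and smooth muscle cells, 8 rose and 0 fell (median 0.24; 3 without GFP replicate 2, 4 and 2 without Cre replicate 1 or 2). Their summed level was 90227 and 86587 in the GFP libraries and 104646 and 108107 in the Cre libraries and the list shares Tagln and Cnn1 with the contractile genes. Lmod1, a smooth muscle leiomodin, had 890.5 and 858 with GFP virus and 1126 and 1131 with Cre virus, and the smooth muscle myosin Myh11 had 2269 and 2231 with GFP virus and 2567 and 2722 with Cre virus. The pericyte marker Cspg4 had 745 and 727 with GFP virus and 636 and 657 with Cre virus, a log2 difference of −0.19 in the other direction that did not pass. Of 4 tested skeletal muscle markers 2 rose, Acta1 and desmin (Des), and 6 listed genes of that type were at 0 in all 4 libraries (1 rose without GFP replicate 2 or either Cre library). For both marker lists, the shares over all genes were 2.67% for rises and 5.99% for falls. The part of mural cells in the contractile rises was not tested.

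None of 15 preadipocyte and fibroblast markers passed (limma; 3 had an unadjusted p under 0.05, edgeR called 1 and DESeq2 0), with Pdgfrb at 5122 and 4884 with GFP virus and 5375 and 5329.8 with Cre virus. None of 10 endothelial markers passed (2 at an unadjusted p under 0.05, edgeR 1, DESeq2 0). Of 16 macrophage markers, 1 rose, the metalloelastase Mmp12, with 165 and 158 with GFP virus and 270.2 and 227 with Cre virus (0 without GFP replicate 2 or Cre replicate 1, 2 without GFP replicate 1 or either control library). The share of all genes that rose was 2.67% and the share that fell was 5.99%, for each marker list here. The summed level of all 19 listed macrophage genes was 2810 and 2405 in the GFP libraries and 2761 and 2820 in the Cre libraries, which overlap. Among lymphocyte, mast cell and neutrophil markers 1 gene was tested (Kit, 11.7 and 9.33 with GFP virus and 19.6 and 28.1 with Cre virus) and 8 were at 0 in all 4 libraries. Of 10 Schwann and nerve markers, 2 fell: S100b, which fat cells also express, had 122 and 141 with GFP virus and 82.2 and 63.2 with Cre virus, and the neurotrophin receptor Ngfr had 864 and 909 with GFP virus and 648 and 653 with Cre virus (1 fell without GFP replicate 2 or Cre replicate 2). Markers of mature adipocytes, the labelled cell type, were present in every library, as the Adipoq values above show.

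Few interferon-response genes passed the threshold, while most were slightly lower. Of 56 tested, 6 fell and 0 rose (median −0.12), against 5.99% of all genes that fell and 2.67% that rose. The log2 difference was below 0 in 51 of the 56. In 32 both Cre libraries lay below both GFP libraries (background 27.7%) and in 0 above (background 26.4%). Rsad2, an antiviral enzyme, had 520.5 and 529 with GFP virus and 345 and 354 with Cre virus. Its Cre values lay between the control values (304 and 444), which differed widely from each other. The count was 19 and 18 without control replicate 1 or 2, 2 and 1 without GFP replicate 1 or 2 and 0 without either Cre library. All 4 libraries of the comparison had received adenovirus, and the dose of virus is not given in the sources used here.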

How the data were processed

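The values the authors deposited are a normalized signal, 1 column per library per the file headers. Divided by what 1 read was worth in its library, each value gave a whole read count (100% within 0.01 read). Per the submitters' processing notes, tools were STAR 2.7.8, fastp 0.23.2 and DESeq2 2.11.40.7 on mm10, with no roles stated. The sources used here do not give the gene counter, annotation or strand setting. Groups and replicate numbers came from the sample titles. The members and gene lists were chosen with earlier results of these data known.

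Genes reaching 10 normalized counts in 2 or more of the 4 libraries entered limma 3.58.1 (R 4.3.3, mean-variance trend) on log2(normalized count + 1). All 6 libraries shared 1 fit of 3 group means with 3 residual degrees of freedom. Adjusted p-values (Benjamini-Hochberg) were read at 0.05. The procedure was tested on simulated data. Alternatives were pseudocounts of 0.5 and 5, other filters and scalings, a replicate block, the 4 libraries alone, no trend, each library left out, and count tests on recovered reads (DESeq2 1.42.0, edgeR 4.0.16). Named were Rbm43, the PGC-1 coactivators and their partner factors, the 30 largest rises and 30 largest falls with a mean of at least 50 and no overlap, and from each other list up to 8 members with the smallest p and 2 opposite to its median. Gene positions came from GENCODE M21 and promoter windows from RefSeq, both on this build. Depth limits low genes most. Some genes that the naming rule selects are not reported here.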

Additional observations from a re-analysis of the deposited data

How the results depend on the processing

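The count of changed genes was 1208 to 1259 under other pseudocounts, a minimum of 50 or a minimum over all 6 libraries, 1202 with upper-quartile and 1170 with quantile scaling. With no filter 609 passed (119 higher, 490 lower) among 22944 genes tested. Scaling to equal totals gave 566 higher genes. A fit of only the 4 libraries gave 2070 (773 higher, 1297 lower). With no mean-variance trend 0 passed (0 higher, 0 lower), with 2375 at an unadjusted p under 0.05. On the recovered reads edgeR called 1340, of which 1207 were shared with limma, and DESeq2 825 (214 higher), of which 816 were shared, with an adjusted p for 9633 genes. Without 1 library the count ran from 303 to 2058 (higher 42 to 771, lower 261 to 1289), the low end without a Cre library and the high end without a control library. An arm left with 1 library was assumed to vary like the other groups. All groups share 1 estimate of the spread, and the control pair differed most between replicates. Its median absolute log2 difference was 0.1132, against 0.0874 for the GFP pair and 0.0764 for the Cre pair. The cause of these shifts was not tested, beyond the fewer libraries or more genes in the settings that change those numbers.

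The replicate numbers did not pair the libraries: the deviations of same-numbered libraries from their group means correlated at 0.022, −0.041 and −0.049 across genes. With a replicate block 1291 genes changed, of which 1191 were shared with the fit without it.

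Nuclear respiratory genes that fell numbered 57 to 77 under the other settings with a trend, and YAP, TEAD and SRF targets that rose numbered 7 to 22. No named gene that passed changed direction under any of the 19 alternatives. Genes that did not pass changed sign in 8 cases. Got2 was at 0.00 with total scaling, 0.002 with quantile scaling and −0.074 to 0.024 without 1 library. Over the libraries left out, Cfd ran from −0.046 to 0.071, Nrf1 from −0.015 to 0.059, Zmynd15 from −0.022 to 0.746, Fosb from −0.898 to 0.246 and Rbm43 from −0.462 to 0.249. Depth limits the low genes: 13 of the 837 falls and 9 of the 373 rises had a mean normalized count under 50.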

Other observations

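Further gene groups are given here, and their counts stand beside 5.99% of all genes that fell and 2.67% that rose. None of 50 cytosolic ribosomal protein genes passed (limma; 1 had an unadjusted p under 0.05, and edgeR and DESeq2 called 0), and their log2 differences ran from −0.05 to 0.12 with a median of 0.04. Rpl8 was at 7866 and 7376 with GFP virus and 8006 and 8312 with Cre virus. Reads of these genes can be shared with processed pseudogenes. Of 36 genes of the integrated stress and unfolded protein response, 1 rose: the chaperone Hyou1, with 2426 and 2284 with GFP virus and 2648 and 2754 with Cre virus (5 rises without either control library, 0 without either Cre library). Atf4 was at 3299 and 3137 with GFP virus and 3510.1 and 3469 with Cre virus and did not pass. In 19 of the 36 both Cre libraries lay above both GFP libraries (background 26.4%) and in 4 below (background 27.7%). Against the control libraries, 25 of the 36 had both Cre libraries below both (background 26.8%) and 1 above (background 27.8%). Those control libraries had no Rbm43 siRNA, and 23 of the list fell with that siRNA in the GFP libraries (background 9.82%).

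Of 28 p53 targets, 4 rose and 1 fell (2 and 1 rises without GFP replicate 1 or 2, 1 without either Cre library). Plk2, a kinase induced by stress, had 1431 and 1432 with GFP virus and 1992 and 1967 with Cre virus, and the cell cycle inhibitor Cdkn1a had 4959 and 4621 with GFP virus and 5545 and 5718 with Cre virus. Tigar fell by 0.33. In 16 of the 28 targets both Cre libraries lay above both GFP libraries (background 26.4%) and in 5 below (background 27.7%). For this list and the next 2, the shares over all genes were 5.99% for falls and 2.67% for rises. Among 28 genes of the cell cycle and DNA replication, the cyclin Ccnd1 rose by 0.24 and Rrm2 by 0.32, Rrm1 fell by 0.18, and Top2a was at 909 and 935 with GFP virus and 1048 and 1036 with Cre virus, not past the threshold (4 rises without either control library, 0 without GFP replicate 2 or either Cre library). Of 19 circadian clock genes, the repressors Nfil3 and Bhlhe40 rose, Bhlhe40 from 1971 and 1878 to 2318 and 2260.0, while the core gene Arntl was at 546 and 515 with GFP virus and 557 and 557 with Cre virus and did not pass (1 rise without GFP replicate 1, 0 without GFP replicate 2 or either Cre library).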
